A study of Gossypium hirsutum with 18 samples.

Results

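The response of upland cotton leaves to the treatment labelled SAS was measured by comparing 3 SAS leaf libraries with 3 leaf libraries labelled CK, the untreated controls. These 6 libraries are among 18 in the study, which sequenced poly(A) RNA from roots and leaves of Gossypium hirsutum seedlings under 3 conditions, CK, AS and SAS. Of 70478 genes in the deposited table, the 43595 with an FPKM (fragments scaled by gene length and by library size) of at least 1 in 3 or more of the 6 libraries were tested. The seedlings were raised in soil and then placed in solution; the labels describe sodium bicarbonate at 125 mM for 12 h and a sodium hydroxide solution brought to the same pH, but do not say which of the codes AS and SAS stands for which. The codes are therefore kept as they are, and CK is known only as having no treatment, with its solution and sampling time not given. Cultivar and age are not given either. The labels number 3 libraries in each group without saying that they came from separate plants, so p-values measure only the spread between these libraries.

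Alkaline soils expose plants to high pH, to sodium and, where they are carbonated, to bicarbonate, and the leaf receives the stress through the root and the transpiration stream. Under many stresses leaves are known to lower the transcripts of photosynthesis and growth, to produce reactive oxygen species in chloroplasts, peroxisomes and at the plasma membrane, and to raise enzymes that detoxify them. Abscisic acid and ethylene are the hormones most often tied to such responses, abscisic acid by closing stomata and ethylene by promoting senescence. In whole leaves, fewer cells of a type and less RNA per cell cannot be told apart.

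The 9 leaf libraries held between 52753477 and 66843791 counts each. In a principal component analysis of log2 CPM (counts scaled per 1e6 counts of a library), the first component carried 67.3% of the variance. It placed CK libraries 1 to 3 at -119, -116 and -101, AS libraries at -1.03, -33.7 and -15.8, and SAS libraries at 125, 174 and 88.0. On this component the AS libraries lay between the other groups, and the SAS libraries were the most spread. The next component, with 12.3% of the variance, set AS apart from both. It placed the AS libraries at -64.2, -45.7 and -68.8, CK at 43.4, 36.7 and 30.6, and SAS at 16.2, 38.2 and 13.5. The genes used had passed the filter on CK and SAS libraries only. Pearson correlations between libraries of a group, across genes, were 0.9753 to 0.9814 in CK and 0.9563 to 0.9668 in SAS. Among genes called in SAS against CK, SAS library 2 was the farthest from CK for 69.2% and SAS library 3 was the nearest for 62.3%. The 10 most abundant genes took 2.71 to 3.01% of counts in CK, 1.93 to 2.06% in AS and 1.57 to 1.63% in SAS.

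**Figure D1:**
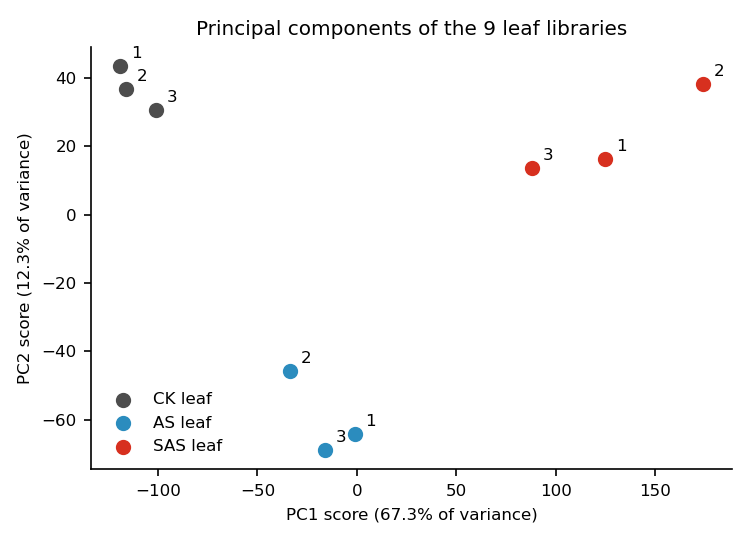
Principal component scores of the 9 leaf libraries (x axis, first component; y axis, the component after it; percent of variance on each axis), 1 point per library, coloured by group. CK, AS and SAS follow each other along the x axis, and SAS library 2 lies farthest from CK at 174. Along the y axis AS lies apart from both CK and SAS.

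Most of the genes tested in leaves differed between SAS and CK. Of 43595 genes, 23581 (54.1%) passed an adjusted p of 0.05 in edgeR's quasi-likelihood test, 12040 (27.6%) of them higher in SAS and 11541 (26.5%) lower. These percentages are the background against which each gene group below is to be read. Both directions were about equally frequent, and the median log2 change over all tested genes was 0.00. Large changes were not symmetric: at least 4-fold changes numbered 2273 higher and 983 lower, at least 8-fold changes 1094 and 211, and at least 16-fold changes 530 and 56. The median size of a called change was 0.90 on the log2 scale. The SAS and CK libraries did not overlap for 27571 genes (63.2%), and 419 of the called genes had overlapping libraries. The largest changes named for each list below were picked only among called genes without overlap. Separate CK and SAS libraries in those genes therefore reflect the choice and are not a further result. Of the tested genes, 30 had no count in any CK library, and all 30 were called higher. Another 6 had no count in any SAS library, and all 6 were called lower. The filter admitted such genes only if all 3 libraries of the other group reached an FPKM of 1, so these calls were nearly fixed in advance. Members of the lists below could likewise pass the filter through 1 group alone. The A and D subgenomes, the ancestral chromosome sets of this tetraploid, had similar shares, with 27.9% higher and 26.8% lower in A and 28.3% and 26.7% in D. Reads of near-identical A and D copies could have been divided between them, so the value of a single copy is less certain than the direction of a family.

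AS against CK, which uses the same CK libraries, called 9179 genes (21.1%), 5115 (11.7%) higher and 4064 (9.32%) lower. For 17866 of the genes called in SAS against CK (75.8%), the AS mean lay between the CK and SAS means. These genes were called for the distance between the same CK and SAS means, which favours an AS mean between them. The share over all tested genes was not computed. The direct comparison of SAS with AS called 17792 genes (40.8%), 9138 (21.0%) higher in SAS and 8654 (19.9%) lower.

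**Figure D2:**
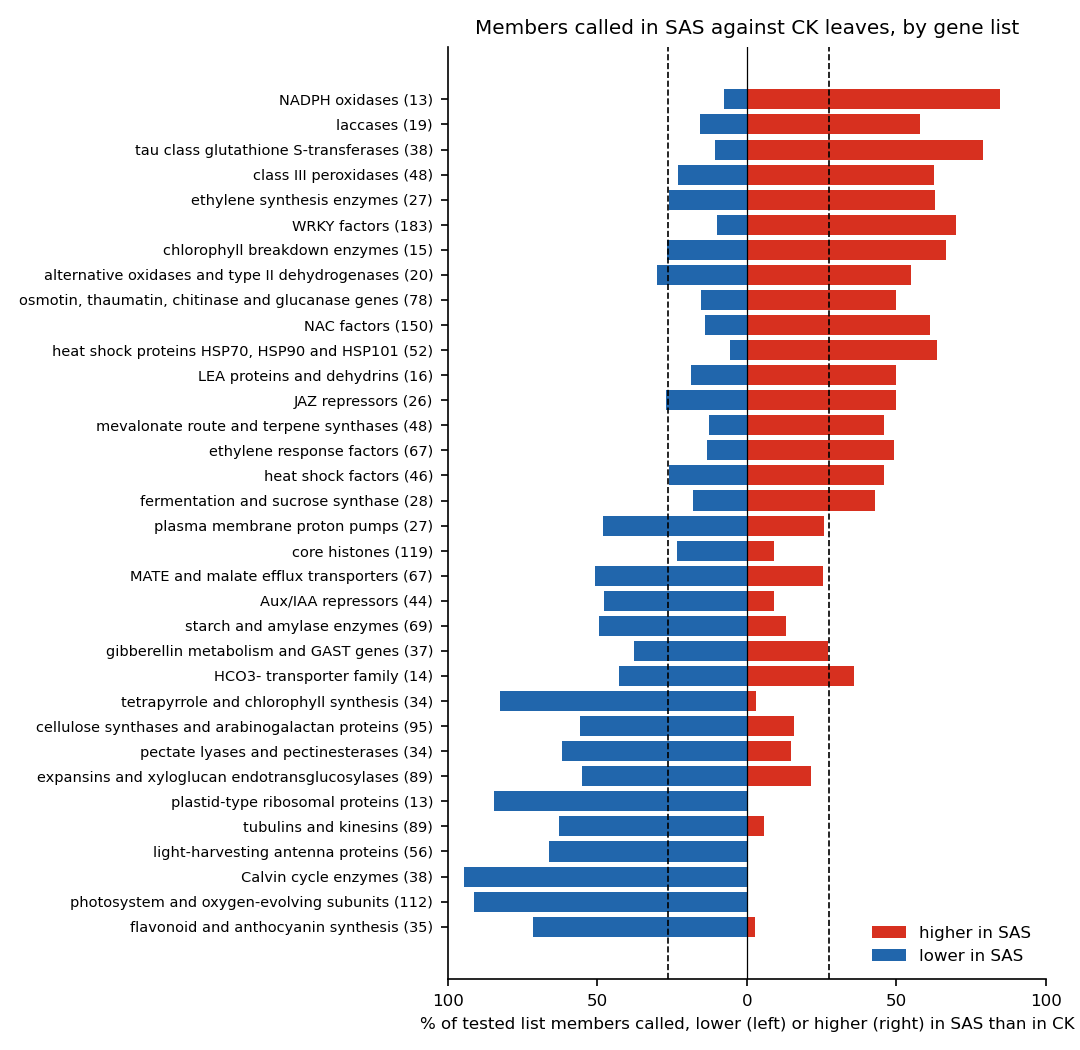
Percent of tested members (x axis; number in parentheses) of the gene lists with the highest and the lowest median change (y axis) called higher (to the right) or lower (to the left) in SAS than in CK leaves at an adjusted p of 0.05, with dashed lines at the shares of all tested genes, 27.6% and 26.5%. Photosystem, Calvin cycle and antenna bars lie only on the lower side, and WRKY factors, NADPH oxidases and tau class glutathione S-transferases lie mostly on the higher side.

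Most photosystem, Calvin cycle, antenna and tetrapyrrole synthesis genes were lower in SAS leaves. Of 112 photosystem and oxygen-evolving subunits that passed the filter, out of 117 in the table, 102 fell and 0 rose, with a median log2 change of -1.32 against 0.00 over all genes. Among 38 Calvin cycle genes, 36 fell and 0 rose (median -1.27), and among 56 light-harvesting antenna genes 37 fell and 0 rose (median -1.02). The enzymes of tetrapyrrole synthesis, the route to chlorophyll and haem, fell in 28 of 34 cases and rose in 1 (median -0.78). Of 13 plastid ribosomal proteins, which build the chloroplast's own ribosomes, 11 fell and 0 rose.

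The Calvin cycle gene of highest FPKM shows the size of the change. Gh_A07G2172, a small subunit of rubisco, the enzyme that fixes carbon dioxide, stood at 4803, 5522 and 4132 CPM in CK libraries 1 to 3 and at 1569, 1276 and 2383 CPM in the SAS libraries. No SAS library reached the lowest CK library, and SAS library 3 was the nearest to it. The log2 change was -1.47 ± 0.24 (SE; adjusted p = 7.3e-04), and the mean FPKM went from 7896 to 2931. In AS it was 4638, 4688 and 4528 CPM, within the range of CK. Gh_D05G3193, a PsbR subunit of photosystem II, was at 748, 596 and 613 CPM in CK and 265, 245 and 404 CPM in SAS (log2 -1.10 ± 0.20, adjusted p = 0.00123). The groups did not overlap, and AS lay between them at 420.4 to 486 CPM. Gh_D01G1828, the Crd1 cyclase that closes the isocyclic ring of chlorophyll, went from 295, 237 and 219 CPM to 82.8, 64.5 and 117 CPM (log2 -1.50 ± 0.21, adjusted p = 3.0e-04). Its AS libraries, at 221 to 256 CPM, overlapped CK. Gh_D01G2232, a light-harvesting protein of photosystem II, was at 487, 435 and 349 CPM in CK and at 206, 186 and 279 CPM in SAS (log2 -0.92 ± 0.20, adjusted p = 0.00294).

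Summed over all members, photosystem genes took 1.38, 1.28 and 1.09% of all counts in the CK libraries and 0.451, 0.383 and 0.725% in the SAS libraries. Calvin cycle genes took 1.96 ± 0.164% (SD, n = 3) in CK and 0.783 ± 0.298% in SAS. The SAS libraries lay below the CK libraries in both sums, with SAS library 3 the highest of the SAS libraries. AS differed little from CK in the Calvin cycle list, where 1 of 38 genes was called lower and 0 higher, while SAS against AS called 36 lower and 0 higher. For photosystem genes AS against CK called 18 lower and 0 higher, and SAS against AS called 83 lower and 1 higher.

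**Figure D3:**
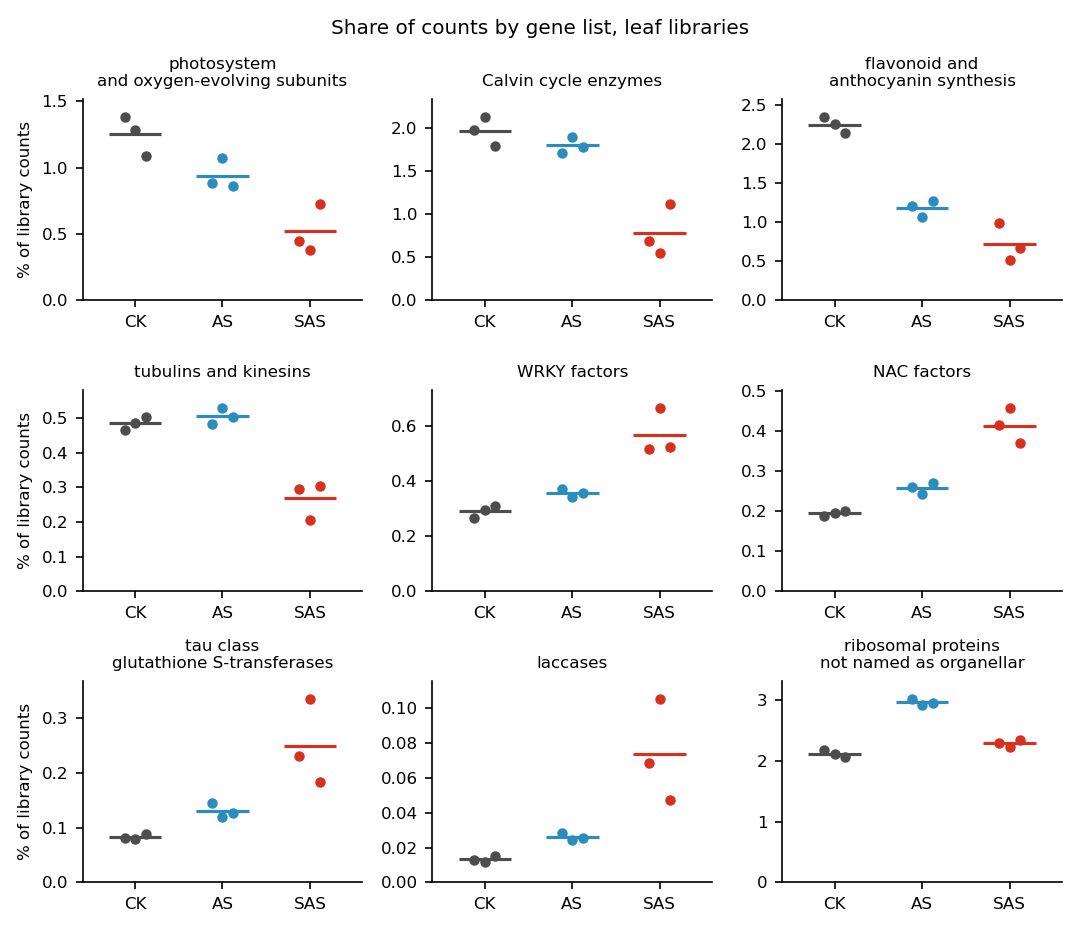
Percent of each leaf library's counts taken by gene lists (y axis, linear, starting at 0), with 1 point per library and a line at each group's mean, for CK, AS and SAS. The photosystem, Calvin cycle and flavonoid sums are lowest in SAS and the WRKY, tau class glutathione S-transferase and laccase sums are highest in SAS, each with no overlap between CK and SAS.

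Photorespiration, which recovers carbon from rubisco's oxygenase product through chloroplast, peroxisome and mitochondrion, changed in a mixed way. Of 51 genes 24 fell and 11 rose (median -0.33). Core enzymes of the cycle fell: Gh_A05G0330, the P protein of the mitochondrial glycine decarboxylase, was at 738, 707 and 650.2 CPM in CK and 205, 135 and 241 CPM in SAS (log2 -1.85 ± 0.21, adjusted p = 9.3e-05). Gh_D13G2270, the peroxisomal alanine:glyoxylate aminotransferase, went from 750.3, 732 and 647 CPM to 263, 185 and 333 CPM (log2 -1.45 ± 0.22, adjusted p = 4.3e-04). Neither gene's groups overlapped. A member that rose does not have the role of the list's name: Gh_A09G1843 is a serine hydroxymethyltransferase 4, a cytosolic form in Arabidopsis, and was at 6.30, 5.88 and 6.80 CPM in CK and 47.5, 54.0 and 39.1 CPM in SAS, 7.41-fold higher (log2 2.89 ± 0.23, adjusted p = 2.5e-05).

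Genes of chlorophyll breakdown moved the other way from those of its synthesis. Of 15 tested members, 10 rose and 4 fell, with a median log2 change of 1.11. Gh_A08G1597 is a NYE1 (stay-green) protein, which removes magnesium from chlorophyll, and was at 8.58, 8.99 and 9.79 CPM in CK and 43.1, 31.8 and 24.0 CPM in SAS (log2 1.85 ± 0.23, adjusted p = 1.8e-04). Gh_A08G1271, a pheophytinase, which then splits off the phytol chain, went from 47.7, 40.5 and 43.9 CPM to 116, 88.3 and 80.5 CPM (log2 1.11 ± 0.15, adjusted p = 2.3e-04). Both genes were higher in every SAS library than in every CK library. In AS they were at 8.25 to 13.6 and at 41.8 to 51.8 CPM, each overlapping CK. Against AS, SAS had 9 of the 15 genes higher and 4 lower, whereas AS against CK had 1 higher and 0 lower.

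The list of senescence-associated genes did not move as 1 block: 9 of 26 rose and 7 fell (median 0.07). Its extreme member was SAG12, a cysteine protease widely used as a marker of leaf senescence. Gh_D06G1428, on chromosome D06 from 46113687 to 46114499 in the deposited coordinates, was at 10.7, 25.5 and 33.7 CPM in CK, at 290.1, 226 and 315 CPM in AS and at 824, 1459 and 689.7 CPM in SAS. All 3 groups were separate. SAS was 42.5-fold above CK (log2 5.41 ± 0.47, adjusted p = 3.5e-05), AS was above CK by log2 3.57 (adjusted p = 9.2e-04), and SAS was above AS by log2 1.84 (adjusted p = 0.00607). Members described as senescence-associated gene 21 went both ways. Gh_D10G1707 fell, from 155, 151 and 95.7 CPM to 44.0, 44.8 and 77.6 CPM (log2 -1.27 ± 0.28, adjusted p = 0.00339). Gh_A10G1465, the member of highest FPKM in the list, also fell (log2 -0.83 ± 0.22, adjusted p = 0.00927). Gh_D08G0811 rose, from 4.48, 4.53 and 4.66 CPM to 59.8, 49.6 and 27.2 CPM (log2 3.32 ± 0.28, adjusted p = 2.9e-05). Subunits of the proteasome, which degrades ubiquitin-tagged proteins, rose in 46 of 80 cases and fell in 1, but by little, with a median of 0.33. Autophagy genes, which serve bulk recycling of cytoplasm, were divided, with 9 of 36 higher and 9 lower. Both shares, 25.0%, were near the 27.6% and 26.5% over all genes.

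Enzymes that make reactive oxygen species at the plasma membrane were higher. Of the 13 NADPH oxidases (respiratory burst oxidase homologues) tested, out of 25 in the table, 11 rose and 1 fell, with a median log2 change of 2.48. Gh_D11G2743, a respiratory burst oxidase B on chromosome D11 from 56977773 to 56982441, was at 0.531, 0.172 and 0.477 CPM in CK, 5.92, 3.17 and 5.50 CPM in AS and 33.7, 49.2 and 24.9 CPM in SAS. The groups were separate in that order, and SAS was 92.1-fold above CK (log2 6.53 ± 0.44, adjusted p = 1.5e-05) and above AS by log2 2.88 (adjusted p = 5.4e-04). The 2 members of highest FPKM, both F-type, also rose. Gh_A12G2669 went from 19.4, 23.7 and 30 CPM to 124, 156 and 113 CPM (log2 2.42 ± 0.23, adjusted p = 5.1e-05), and Gh_D12G2750 from 45.2, 52.0 and 54.1 CPM to 138, 184 and 138 CPM (log2 1.60 ± 0.19, adjusted p = 1.2e-04). The member that fell was a D-type gene, Gh_D12G1932, at 3.87, 5.94 and 5.86 CPM in CK and 0.995, 0.238 and 1.33 CPM in SAS (log2 -2.59 ± 0.46, adjusted p = 0.00114).

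Scavengers of reactive oxygen did not follow as a group. Of 17 superoxide dismutases, which convert superoxide to hydrogen peroxide, 8 fell and 2 rose (median -0.24), and Gh_D07G0457, an iron form of the chloroplast in Arabidopsis, went from 103, 82.4 and 76.4 CPM to 25.2, 28.6 and 33.1 CPM (log2 -1.59 ± 0.22, adjusted p = 3.1e-04). Of 9 catalases, peroxisomal enzymes that split hydrogen peroxide, 5 fell and 3 rose. Gh_A02G1698, a catalase 2, was at 671, 628 and 566 CPM in CK and at 289, 159 and 293 CPM in SAS (log2 -1.33 ± 0.22, adjusted p = 7.8e-04). Another catalase 2, Gh_A01G0845, moved slightly up, from 136, 151 and 142 CPM to 204, 216 and 198 CPM (log2 0.53 ± 0.12, adjusted p = 0.00377). In none of these genes did the CK and SAS libraries overlap, which the choice of Gh_D07G0457 and Gh_A01G0845 required.

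The ascorbate-glutathione cycle, which reduces hydrogen peroxide through ascorbate, fell in 20 of 43 genes and rose in 10 (median -0.18). Gh_D01G1632, an ascorbate peroxidase 3, was at 23.6, 22.2 and 21.0 CPM in CK and 5.71, 3.69 and 4.27 CPM in SAS (log2 -2.29 ± 0.16, adjusted p = 1.5e-05). A monodehydroascorbate reductase, Gh_A09G1288, which regenerates ascorbate, moved up from 57.4, 65.6 and 68.1 CPM to 148, 149 and 123 CPM (log2 1.14 ± 0.21, adjusted p = 0.00142), and was as high in AS, at 228, 118 and 158 CPM. Of 192 thioredoxin superfamily genes 84 fell and 31 rose (median -0.31). Of 17 glutathione peroxidases 3 rose and 3 fell, both shares below those over all genes.

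Tau class glutathione S-transferases, which attach glutathione to reactive compounds, were mostly higher: 30 of 38 rose and 4 fell (median 1.85). Together they took 0.0810, 0.0801 and 0.0878% of counts in CK and 0.231, 0.335 and 0.183% in SAS. Gh_D13G1635, a TAU 25 gene on chromosome D13 from 49578138 to 49580327, was at 0.399, 1.25 and 1.05 CPM in CK, 51.1, 58.4 and 41.9 CPM in AS and 326, 482 and 164 CPM in SAS. SAS was 354-fold above CK (log2 8.47 ± 0.53, adjusted p = 1.3e-05) and above AS by log2 2.68 ± 0.40 (adjusted p = 0.00116). A member of high FPKM also rose: Gh_D09G1520, a TAU 8 gene, went from 127, 147 and 184 CPM to 522, 949.8 and 423 CPM (log2 2.05 ± 0.29, adjusted p = 3.2e-04). Gh_D04G1332, a TAU 18 gene, fell, from 274, 253 and 259 CPM to 103, 60.6 and 74.4 CPM (log2 -1.72 ± 0.18, adjusted p = 7.1e-05).

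The secreted class III peroxidases, active on phenolics and cell walls, gave different answers by count of tested members and by summed level of all members. Of 191 such genes only 48 were tested, and of these 30 rose and 11 fell (median 1.55). Members low in CK could enter the test through their SAS libraries alone, and members low in SAS through CK. Count and median therefore depend on the filter. The share of counts of all 191 genes was lower in SAS, at 0.328% on average against 0.388% in CK. Gh_A05G1452 went from 1430.0, 1610.5 and 1802 CPM to 378, 229.5 and 439 CPM, 4.63-fold lower (log2 -2.21 ± 0.24, adjusted p = 7.6e-05). The alternative routes of mitochondrial electron transport, which bypass proton pumping, were higher in 11 of 20 genes and lower in 6 (median 0.99). Gh_D04G1513, an alternative oxidase 2, was at 10.1, 10.1 and 9.99 CPM in CK, 35.8, 25.5 and 38.6 CPM in AS and 137, 206 and 116 CPM in SAS, 15.3-fold above CK (log2 3.93 ± 0.24, adjusted p = 1.1e-05). CK libraries differed very little in this gene, and the 3 groups were separate.

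**Figure D4:**
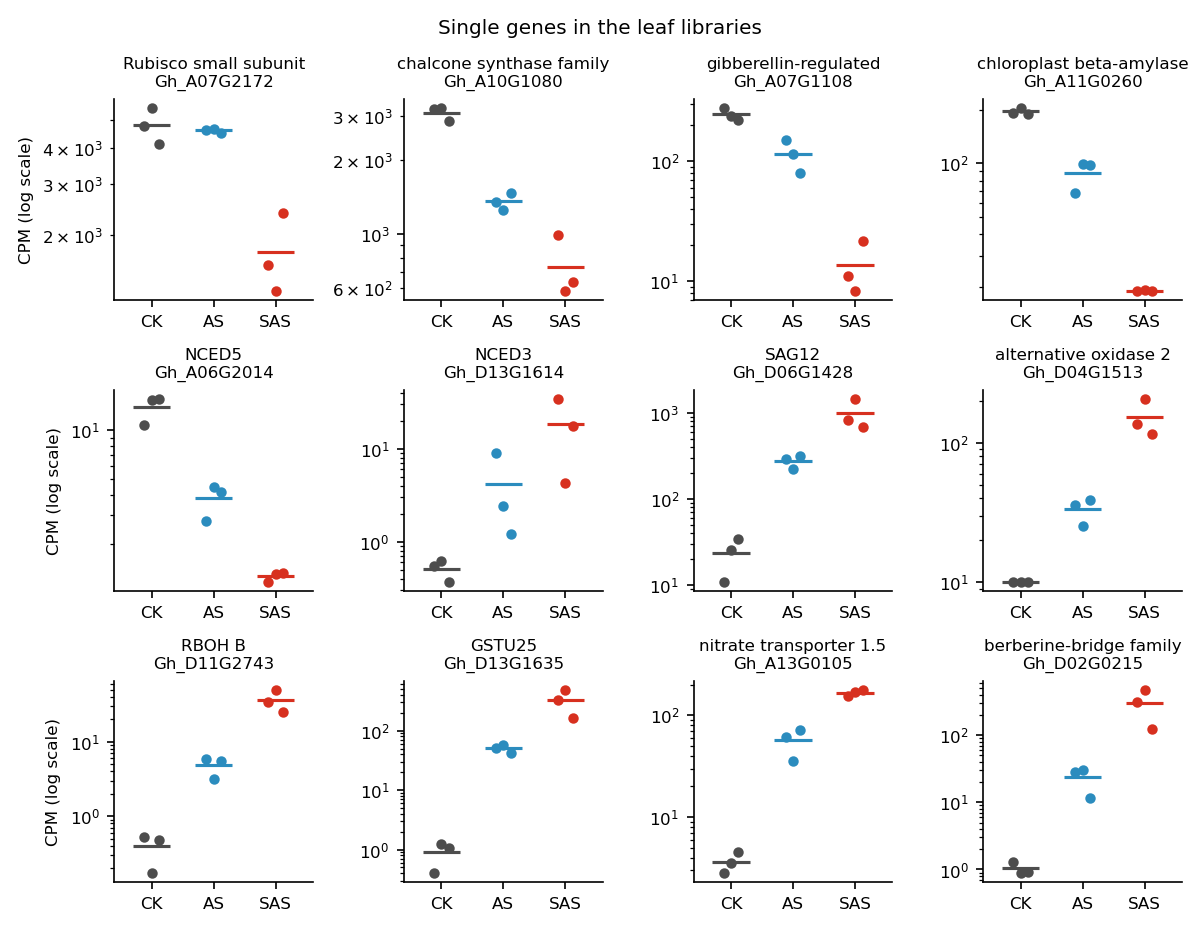
CPM of selected genes in each of the 9 leaf libraries on a log axis, with 1 point per library and a line at each group's mean, grouped as CK, AS and SAS. SAG12, respiratory burst oxidase B, tau glutathione S-transferase 25 and alternative oxidase 2 are ordered CK, AS, SAS from low to high, and chalcone synthase and beta-amylase from high to low.

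Large heat shock proteins were mostly higher. Of 52 heat shock proteins of the 70, 90 and 101 classes, 33 rose and 3 fell (median 0.69), and Gh_A11G0174, a heat shock protein 70, went from 52.4, 46.7 and 51.1 CPM to 154, 242 and 125 CPM (log2 1.80 ± 0.23, adjusted p = 2.1e-04). Of 46 heat shock factors 21 rose and 12 fell, and Gh_A02G1510, a heat shock factor 4, went from 27.5, 29.0 and 31.4 CPM to 163, 209 and 112 CPM (log2 2.46 ± 0.22, adjusted p = 4.2e-05). Small heat shock proteins were divided, with 12 of 52 higher and 8 lower (median 0.09), both shares below the 27.6% and 26.5% over all genes.

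Pumps and channels that set pH and ion balance showed no common direction. Plasma membrane proton ATPases, which acidify the cell wall space and drive uptake, fell in 13 of 27 cases and rose in 7. A proton ATPase 1 among the pumps of highest FPKM rose: Gh_D06G1136 was at 231, 230.5 and 243 CPM in CK and at 832, 1140.0 and 790.2 CPM in SAS (log2 1.97 ± 0.22, adjusted p = 1.0e-04), with AS between at 479.8, 270.0 and 350.0 CPM. Gh_A10G0458, an autoinhibited proton ATPase 10, whose Arabidopsis counterpart serves seed coat pigmentation, fell from 353, 349 and 365 CPM to 168, 83.2 and 111 CPM (log2 -1.56 ± 0.23, adjusted p = 4.2e-04). Among 53 vacuolar proton pump genes 8 rose and 9 fell, both shares below those over all genes. Of 14 sodium/proton exchangers, which move sodium into the vacuole or out of the cell, 4 rose and 5 fell.

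Potassium transporters and channels fell in 29 of 81 cases and rose in 10 (median -0.21), and Gh_A01G0709, an outward rectifying potassium channel, went from 23.5, 20.4 and 21.5 CPM to 5.08, 3.53 and 6.27 CPM (log2 -2.13 ± 0.20, adjusted p = 4.4e-05). The calcineurin B-like calcium sensors and their kinases, which in Arabidopsis regulate sodium and potassium transport, fell in 25 of 73 cases and rose in 13. A kinase of high FPKM, Gh_A06G0873, described as SOS3-interacting protein 3, was at 641, 619 and 622 CPM in CK and at 247, 116 and 216 CPM in SAS (log2 -1.70 ± 0.25, adjusted p = 3.5e-04). Neither gene's groups overlapped.

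Carbonic anhydrases interconvert carbon dioxide and bicarbonate, and their summed level was lower in SAS. Of 29 tested, 9 fell and 5 rose, and their share of counts went from a mean of 0.189% in CK to 0.0868% in SAS. Gh_D07G2244, a carbonic anhydrase 1, was at 271, 271 and 247 CPM in CK, 85.9, 116 and 99.2 CPM in AS and 36.4, 33.4 and 55.1 CPM in SAS (log2 -2.66 ± 0.20, adjusted p = 2.0e-05). An alpha carbonic anhydrase 1, Gh_D04G0953, went from 85.0, 81.7 and 71.1 CPM to 7.68, 5.70 and 11.6 CPM, 9.48-fold lower (log2 -3.25 ± 0.27, adjusted p = 3.0e-05). All 3 groups were separate in both genes. Genes described as the HCO3- transporter family, whose best-known Arabidopsis members carry borate, were divided, with 5 of 14 higher and 6 lower. One that rose, Gh_A06G1641, went from 1.39, 2.93 and 3.59 CPM in CK to 34.3, 17.5 and 15.3 CPM in AS and 76.3, 91.5 and 28.9 CPM in SAS, 24.7-fold above CK (log2 4.63 ± 0.53, adjusted p = 1.2e-04).

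Genes of abscisic acid synthesis did not share a direction: 4 of 16 rose and 7 fell. The 9-cis-epoxycarotenoid dioxygenases, which catalyse its committed step, were opposed within the family. Gh_A06G2014 (dioxygenase 5) was at 10.8, 15.2 and 15.5 CPM in CK and 1.17, 1.31 and 1.33 CPM in SAS, 10.9-fold lower (log2 -3.44 ± 0.23, adjusted p = 1.4e-05), and Gh_A12G1838 (dioxygenase 4, an apocarotenoid-forming enzyme in Arabidopsis) also fell, from 21.8, 21.1 and 17.9 CPM to 3.11, 1.93 and 3.43 CPM (log2 -2.84 ± 0.22, adjusted p = 2.2e-05). Gh_D13G1614 (dioxygenase 3) was at 0.550, 0.611 and 0.365 CPM in CK and at 34.3, 4.27 and 17.4 CPM in SAS, 36.6-fold higher (log2 5.19 ± 0.94, adjusted p = 0.00128). Its SAS libraries differed widely, and without SAS library 1 the log2 change was 4.41. Downstream, 8 of 30 receptors rose and 6 fell, and 7 of 24 PP2C phosphatases and ABF factors rose and 2 fell. Gh_D12G0214, an ABF3, which binds abscisic acid response elements, differed little within each group, from 22.3, 21.7 and 22.9 CPM to 71.8, 73.4 and 69.7 CPM (log2 1.68 ± 0.08, adjusted p = 6.7e-06).

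Ethylene synthesis and response genes rose more often than they fell. Of 27 genes of its synthesis 17 rose and 7 fell (median 1.35), and their share of counts went from a mean of 0.213% to 0.501%. Gh_D08G0546, the ethylene-forming enzyme, which catalyses the last step, was at 389, 458 and 521 CPM in CK, 711, 567 and 723 CPM in AS and 1273, 1719 and 1367 CPM in SAS (log2 1.67 ± 0.18, adjusted p = 8.8e-05). All 3 groups were separate. Of 67 ethylene response factors 33 rose and 9 fell (median 0.53), and Gh_D06G1197, a factor 110, went from 0.304, 0.110 and 0.318 CPM to 23.5, 30.6 and 11.5 CPM, 90.0-fold higher (log2 6.49 ± 0.57, adjusted p = 3.6e-05). AS against CK had 16 of these factors higher and 7 lower, and SAS against AS had 29 higher and 5 lower.

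Jasmonate genes were divided at the level of synthesis, with 9 of 35 higher and 9 lower, shares near the 27.6% and 26.5% over all genes. Of 26 JAZ repressors, which jasmonate induces and degrades, 13 rose and 7 fell. Gh_A08G2199, a JAZ1, went from 1.71, 1.86 and 2.22 CPM to 21.5, 31.8 and 9.78 CPM (log2 3.44 ± 0.37, adjusted p = 8.8e-05). Gh_D05G2975, a JAZ3, went the other way, from 72.6, 80.5 and 80.6 CPM to 34.6, 26.9 and 42.9 CPM (log2 -1.16 ± 0.15, adjusted p = 2.0e-04). Of 37 gibberellin metabolism and GAST-type genes 14 fell and 10 rose. Gh_A06G2011, a gibberellin 2-oxidase, which inactivates the hormone, was at 0.550, 0.564 and 0.397 CPM in CK and 17.9, 20.8 and 14.8 CPM in SAS, 35.3-fold higher (log2 5.14 ± 0.36, adjusted p = 1.7e-05). Gh_A07G1108, a gibberellin-regulated protein, went from 278, 238 and 223 CPM to 11.1, 8.26 and 21.6 CPM (log2 -4.17 ± 0.37, adjusted p = 3.8e-05). In each of these 4 genes the groups did not overlap.

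Aux/IAA and SAUR genes fell more often than they rose. Of 44 Aux/IAA repressors 21 fell and 4 rose (median -0.56), of 75 SAUR genes 25 fell and 16 rose (median -0.37), and of 23 GH3 genes, which conjugate the hormone, 9 fell and 7 rose. Gh_A05G3764, an IAA9, went from 96.3, 98.8 and 103 CPM to 38.4, 17.4 and 31.2 CPM (log2 -1.77 ± 0.23, adjusted p = 2.3e-04). Gh_D01G0559, a GH3 gene, was at 0.228, 0.313 and 0.222 CPM in CK and at 11.1, 12.1 and 7.82 CPM in SAS (log2 5.32 ± 0.52, adjusted p = 5.3e-05). For the Aux/IAA list AS against CK had 20 lower and 0 higher (median -0.60), and SAS against AS had 7 higher and 9 lower (median -0.02).

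Transcription factors of stress families were mostly higher. Of 183 WRKY genes tested, a plant family named for its DNA-binding motif, 128 rose and 18 fell, with a median log2 change of 1.23. Their share of counts was 0.267, 0.295 and 0.309% in the CK libraries, 0.370, 0.344 and 0.355% in the AS libraries and 0.515, 0.664 and 0.524% in the SAS libraries, with 3 separate groups. Gh_A03G0210, a WRKY2, went from 129, 139 and 149 CPM to 390.1, 538 and 376 CPM (log2 1.65 ± 0.17, adjusted p = 5.9e-05). Of 150 NAC genes tested, out of 296 in the table and of a family with members that drive senescence, 92 rose and 21 fell (median 0.74). Gh_A03G1332, a NAC83, was at 47.8, 54.8 and 50.0 CPM in CK, 155, 101 and 143 CPM in AS and 232, 362 and 263 CPM in SAS, 5.61-fold above CK (log2 2.49 ± 0.21, adjusted p = 2.8e-05). In AS the medians of these families were small, at 0.26 with 41 WRKY genes higher and 17 lower, and at 0.05 with 26 NAC genes higher and 9 lower. SAS against AS had 112 WRKY genes higher and 7 lower, and 77 NAC genes higher and 5 lower.

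Flavonoid and anthocyanin synthesis was also lower in SAS. Of 35 genes 25 fell and 1 rose (median -1.42), and their share of counts was 2.34, 2.25 and 2.14% in the CK libraries, 1.20, 1.06 and 1.27% in the AS libraries and 0.991, 0.519 and 0.664% in the SAS libraries. Gh_A10G1080, a chalcone synthase, the entry enzyme, was at 3199, 3236 and 2876 CPM in CK, 1346, 1248 and 1465 CPM in AS and 987, 584 and 637 CPM in SAS (log2 -2.08 ± 0.22, adjusted p = 7.0e-05). Gh_D08G1902, a leucoanthocyanidin dioxygenase of the late pathway, went from 1671, 1548 and 1461 CPM to 408, 189.9 and 293 CPM (log2 -2.39 ± 0.25, adjusted p = 7.5e-05). In both the share and these genes the 3 groups were separate, and SAS was the lowest.

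The phenylpropanoid route that feeds flavonoids and lignin was split. Of 65 genes 28 rose and 21 fell, but its share of counts went from a mean of 1.51% in CK to 0.828% in AS and 0.904% in SAS. Gh_A01G1839, a phenylalanine ammonia-lyase 1, which starts the route, on chromosome A01 from 98311419 to 98314446, was at 3281, 2948 and 3075 CPM in CK, 974, 1139.9 and 1075 CPM in AS and 826, 415 and 561 CPM in SAS, 5.16-fold below CK (log2 -2.37 ± 0.24, adjusted p = 6.4e-05). Gh_A04G1207, a caffeoyl-CoA O-methyltransferase of the lignin branch, rose from 5.83, 7.62 and 7.88 CPM to 97.0, 91.4 and 54.1 CPM (log2 3.51 ± 0.33, adjusted p = 4.9e-05).

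Of 104 laccases in the table, copper enzymes that oxidise lignin precursors in the wall, 19 were tested. Of these 11 rose and 3 fell, with a median of 2.29. Members low in CK could enter the test through their SAS libraries alone, and members low in SAS through CK, so count and median depend on the filter. The share of counts of all 104 laccases went from a mean of 0.0133% in CK to 0.0736% in SAS, 5.53 times as much. Gh_A05G2114, a laccase 14, was at 24.0, 22.9 and 25.9 CPM in CK, 82.0, 46.0 and 74.9 CPM in AS and 166, 237 and 148 CPM in SAS (log2 2.92 ± 0.24, adjusted p = 2.9e-05). Gh_A06G0997, also a laccase 14, had no count in CK, 1.69, 3.25 and 0 CPM in AS and 16.5, 23.9 and 2.40 CPM in SAS. The SAS mean was at least 283-fold higher when CK is set at 3 counts per library (adjusted p = 0.00339). SAS library 3 overlapped AS, and SAS against AS did not pass the test (log2 3.10, adjusted p = 0.0617). Terpene synthesis genes rose in 22 of 48 cases and fell in 6. Gh_D01G1963, a terpene synthase 21, a sesquiterpene synthase in Arabidopsis, was at 4.16, 3.90 and 6.02 CPM in CK and 177, 525 and 135 CPM in SAS (log2 5.89 ± 0.66, adjusted p = 1.0e-04), and without SAS library 2 the log2 change was 5.06.

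Over all genes with a description and a mean of at least 10 CPM in the higher group, the 10 largest increases included genes with no count in any CK library. Gh_A12G2647, a UDP-glycosyltransferase, had no count in CK, 3.28, 7.22 and 2.32 CPM in AS and 42.7, 57.1 and 9.97 CPM in SAS, at least 724-fold higher on the same floor of 3 counts per library (adjusted p = 2.1e-04). Gh_D06G0161, an HXXXD-type acyl-transferase, had no count in CK and 19.3, 31.0 and 6.08 CPM in SAS, at least 372-fold higher (adjusted p = 1.4e-04). In both, SAS library 3 was the lowest of the SAS libraries and above all AS libraries for these genes. Genes of the FAD-binding berberine family, some of which oxidise wall fragments or monolignols in Arabidopsis, recurred among the increases. Gh_D02G0215 was at 1.31, 0.878 and 0.922 CPM in CK, 28.5, 30.6 and 11.7 CPM in AS and 308, 469.7 and 123 CPM in SAS, 291-fold above CK (log2 8.19 ± 0.64, adjusted p = 2.4e-05).

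The 10 largest decreases were 3 organic cation/carnitine transporters, 2 pectin methylesterase inhibitors, 2 gibberellin-regulated proteins, a GDSL lipase, an Ntn hydrolase and a nodulin MtN3 protein. Gh_D13G1325, described as organic cation/carnitine transporter 3, was at 139, 118 and 110.1 CPM in CK, 13.0, 30 and 13.6 CPM in AS and 4.97, 2.84 and 3.27 CPM in SAS, 33.0-fold below CK (log2 -5.05 ± 0.37, adjusted p = 2.0e-05). Gh_A07G0141, a pectin methylesterase inhibitor, went from 14.2, 17.8 and 18.2 CPM to 0.279, 0.159 and 0.717 CPM, 42.3-fold lower (log2 -5.40 ± 0.42, adjusted p = 2.4e-05), and without SAS library 3 the log2 change was -6.22. Gh_D12G1898, a nodulin MtN3 family protein, of the SWEET sugar exporters, went from 18.6, 14.1 and 14.0 CPM to 1.03, 0.318 and 1.07 CPM (log2 -4.25 ± 0.35, adjusted p = 2.8e-05). In all 3 genes the AS libraries lay between the other groups.

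Microtubule and cell wall genes fell more often than they rose. Of 89 tubulins and kinesins, the microtubule tracks and their motors, 56 fell and 5 rose. Of 95 cellulose synthase and arabinogalactan protein genes 53 fell and 15 rose (median -0.78), of 89 expansin and xyloglucan hydrolase genes, which loosen the wall, 49 fell and 19 rose (median -0.80), and of 34 pectin enzymes 21 fell and 5 rose (median -0.80). Gh_A03G0126, a beta-8 tubulin, was at 60.9, 71.8 and 69.0 CPM in CK and 8.39, 4.07 and 13.1 CPM in SAS (log2 -2.98 ± 0.35, adjusted p = 1.2e-04). Gh_D07G0974, an expansin A4, went from 103, 105 and 74.7 CPM to 7.16, 10.3 and 17.6 CPM (log2 -3.01 ± 0.40, adjusted p = 2.3e-04). Both sets of libraries were well apart. An expansin-like B1 gene, Gh_D08G1777, was the opposite, at 4.84, 3.09 and 5.74 CPM in CK and 97.7, 201 and 110.3 CPM in SAS (log2 4.91 ± 0.38, adjusted p = 2.4e-05). In AS the wall lists were near balance, with 15 expansin and xyloglucan hydrolase genes higher and 15 lower. SAS against AS had 44 of them lower and 13 higher, and 54 tubulins and kinesins lower and 5 higher. Of 59 cyclins 24 fell and 8 rose, and of 119 histones 28 fell and 11 rose, the latter share lower being near the 26.5% over all genes.

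Carbohydrate and water balance genes changed in part. Starch and amylase genes fell in 34 of 69 cases and rose in 9 (median -0.56). Gh_A11G0260, a chloroplast beta-amylase, which releases maltose from starch, on chromosome A11 from 2410555 to 2412479, was at 193, 205 and 191 CPM in CK, 67.9, 99.4 and 97.4 CPM in AS and 19.0, 19.3 and 19.1 CPM in SAS, 10.3-fold below CK (log2 -3.36 ± 0.15, adjusted p = 6.7e-06). The 3 groups were separate, and the SAS libraries nearly coincided. Aquaporins, which conduct water across membranes, fell in 29 of 67 cases and rose in 20 (median -0.34), and their summed share went from a mean of 0.259% to 0.146%. Gh_D01G0018, a plasma membrane intrinsic protein 3, went from 251, 268 and 252 CPM to 26.5, 22.4 and 69.2 CPM (log2 -2.71 ± 0.43, adjusted p = 6.5e-04), and without SAS library 3 the log2 change was -3.39.

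Synthesis genes of raffinose, trehalose and proline, which are protective solutes, were divided, with 13 of 36 higher and 15 lower. A raffinose synthase of high FPKM, Gh_D08G0970, fell from 423, 469 and 524 CPM to 135, 125 and 138 CPM (log2 -1.83 ± 0.15, adjusted p = 2.9e-05), while Gh_D07G0625, described as the same enzyme family, had no count in CK and 7.92, 12.1 and 3.93 CPM in SAS, at least 158-fold higher on the floor of 3 counts per library (adjusted p = 6.9e-05). Late embryogenesis abundant proteins, which protect dehydrating cells, rose in 8 of 16 cases and fell in 3. Gh_D11G0978 was at 16.2, 18.2 and 18.3 CPM in CK, 39.0, 9.98 and 13.7 CPM in AS and 147, 198 and 121 CPM in SAS (log2 3.15 ± 0.45, adjusted p = 3.6e-04). For this gene AS overlapped CK and SAS stood apart from both.

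Nitrogen genes were balanced by count, with 23 of 58 higher and 19 lower, and moved far in single members. Gh_A13G0105, a nitrate transporter NRT1.5, which loads nitrate into root xylem in Arabidopsis, was at 2.81, 3.57 and 4.54 CPM in CK, 61.9, 35.8 and 72.2 CPM in AS and 155, 169 and 177 CPM in SAS, 45.7-fold above CK (log2 5.51 ± 0.29, adjusted p = 7.3e-06). Gh_A02G0242, the glutamine synthetase of the chloroplast, which recovers photorespiratory ammonium, went from 1068, 1033 and 1004 CPM to 326, 247 and 419 CPM (log2 -1.65 ± 0.19, adjusted p = 1.1e-04). Gh_A07G0650, an ammonium transporter, was at 51.3, 52.4 and 49.4 CPM in CK and at 5.67, 4.11 and 8.18 CPM in SAS (log2 -3.09 ± 0.22, adjusted p = 1.7e-05). The groups did not overlap in any of the 3 genes.

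Ribosomal proteins whose descriptions name no organelle, more often rose than fell against CK and more often fell than rose against AS. Of 909 genes 362 rose and 106 fell against CK (median 0.23), while AS against CK had 542 higher and 7 lower (median 0.49). SAS against AS had 356 lower and 17 higher (median -0.28). The share of counts was 2.18, 2.11 and 2.07% in the CK libraries, 3.02, 2.93 and 2.96% in the AS libraries and 2.30, 2.24 and 2.35% in the SAS libraries, so that SAS lay just above CK and well below AS.

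Markers of leaf cell types moved with some of these groups. The leaf label was met by the mesophyll markers, antenna proteins and rubisco small subunits, which took 1.25% of counts in CK on average and 0.480% in SAS, with 34 of 50 lower and 0 higher. These overlap the photosynthesis lists, and whether a change in the share of mesophyll cells had a part in the fall of those lists was not tested. Of 48 root hair and endodermis markers, 19 had no count in any leaf library; together they took 0.00129 to 0.00159% of counts in CK and 0.00255 to 0.00468% in SAS, and 2 of 6 tested rose. Of 12 guard cell markers 5 rose and 3 fell, and their share was 0.00865 to 0.0104% in CK and 0.0162 to 0.0213% in SAS. The 5 that rose are described as SLAC1 homologue 1 or 3, anion channels, among them Gh_D08G1056 (log2 6.71, and 8.44 without CK library 3). The 3 that fell were MYB60 factors, among them Gh_A11G2037 (log2 -2.09). The potassium channel KAT1 (Gh_A10G0378 and Gh_D10G0386), a defining guard cell gene, did not pass the test. Neither did the list's members described as C4-dicarboxylate transporter/malic acid transport protein, Gh_A08G1582 (log2 -0.10, adjusted p = 0.741) and Gh_D08G1889 (log2 0.32, adjusted p = 0.174). Of 10 xylem markers 3 fell and 0 rose, and of 43 phloem markers 20 rose and 10 fell with overlapping shares. Transcripts of organelle type, a sign of incomplete poly(A) selection, had 1 of 26 higher and 2 lower and overlapping shares. The part of these markers in the other results was not tested.

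The direct comparison of SAS with AS sets neither group against the CK values. The CK libraries still entered it through the gene filter, the scaling and the estimate of spread. Genes that reached the FPKM minimum only in AS were not tested. With only the AS and SAS leaf libraries in the fit, on the same genes, 14468 were called instead of 17792. Among the tested genes, the comparison gave those in which the treatments were furthest apart. Those furthest below AS included 2 alcohol dehydrogenases, fermentation enzymes induced by low oxygen, although the fermentation and sucrose synthase list had 8 of 28 higher and 6 lower against AS. Gh_A01G1605 was at 2.43, 4.97 and 5.94 CPM in CK, 82.3, 94.3 and 94.9 CPM in AS and 1.54, 0.397 and 0.800 CPM in SAS (SAS against AS log2 -6.62 ± 0.45, adjusted p = 1.5e-04). It thus rose in AS, by log2 4.34 (adjusted p = 3.1e-04), and fell in SAS, by a log2 change of -2.28 (adjusted p = 0.00132). Gh_D01G1853, the other alcohol dehydrogenase named, was at 4.67, 7.51 and 8.45 CPM in CK, 69.5, 83.2 and 71.1 CPM in AS and 0.890, 1.31 and 3.07 CPM in SAS (SAS against AS log2 -5.40 ± 0.41, adjusted p = 1.8e-04). The alcohol dehydrogenase of highest FPKM, Gh_A02G0689, went the other way, at 64.8, 41.3 and 58.3 CPM in CK, 40.7, 67.2 and 41.2 CPM in AS and 104, 438 and 80.9 CPM in SAS (SAS against AS log2 2.06 ± 0.57, adjusted p = 0.0167). Against CK its log2 change was 1.92 (adjusted p = 0.0157), it was 0.76 without SAS library 2, and the adjusted p was 0.061 without CK library 2. The remaining 3 of the 5 genes furthest below AS encode proteins of the DUF506 family, of unknown function. Gh_D09G0707 was at 12.5, 13.4 and 19.3 CPM in CK, 61.0, 101 and 109.8 CPM in AS and 0.803, 4.11 and 1.25 CPM in SAS (SAS against AS log2 -5.48 ± 0.55, adjusted p = 3.3e-04). All 5 had higher AS and lower SAS means than CK.

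The genes furthest above AS had other roles. Gh_A02G0532, a RING/U-box protein of the ubiquitin ligase type, was at 0.949, 1.08 and 1.45 CPM in CK, 1.35, 0.979 and 0.435 CPM in AS and 24.7, 34.6 and 19.8 CPM in SAS (SAS against AS log2 4.82 ± 0.37, adjusted p = 1.8e-04). AS overlapped CK, and its log2 difference from CK was -0.32 ± 0.37 (adjusted p = 0.572). Gh_D05G1649, a stigma-specific Stig1 family protein, was at 0.281, 0.515 and 0.380 CPM in AS and 12.9, 23.4 and 12.9 CPM in SAS (SAS against AS log2 5.39 ± 0.54, adjusted p = 3.4e-04). Gh_D11G1335, a potato inhibitor I type protease inhibitor, a class known for wound induction, was at 0.946, 0.398 and 0.326 CPM in AS and 11.6, 24.0 and 8.90 CPM in SAS (SAS against AS log2 4.71 ± 0.49, adjusted p = 3.7e-04).

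The leaf response was then set against the root response to the same treatment, as an interaction over 34801 genes expressed in both organs. The change differed between leaf and root for 17124 genes (49.2%), with 8478 (24.4%) more positive in leaf and 8646 (24.8%) more negative. When libraries were scaled by their totals alone, 21599 genes were called, 17202 with a more positive change in leaf and 4397 with a more negative one, so this split depends on the scaling. For 2648 genes (7.61%) SAS was called in opposite directions in the organs: 1061 (3.05%) were higher in leaf and lower in root, and 1587 (4.56%) the reverse.

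Over the 34801 genes, the 18-library fit called SAS against CK higher in 20.2% and lower in 20.4% in leaves. In roots it called 32.6% higher and 33.0% lower, and these shares are the backgrounds for the list counts that follow. The list counts and medians for both organs use the main scaling (TMM) only. They were not repeated with scaling by library totals, under which the split above moved. Photosystem genes expressed in both organs mostly fell in leaves and rose more often than they fell in roots. Of 43 such genes 36 fell and 0 rose in leaves (median -1.38), while in roots 28 rose and 4 fell (median 1.01), and 22 were called in opposite directions. The interaction was called more negative in leaf for 32 and more positive for 1. Class III peroxidases showed the reverse, with 23 of 34 higher and 4 lower in leaves (median 2.21) against 7 higher and 16 lower in roots, and 10 opposed. Phenylpropanoid genes had 23 of 52 higher and 16 lower in leaves and 10 higher and 28 lower in roots.

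Other lists moved mainly in 1 organ or more in 1 than in the other. Of 29 genes for raffinose, trehalose and proline synthesis, 10 rose and 12 fell in leaves (median -0.05) and 22 rose and 3 fell in roots (median 2.20), and 20 were called more negative in leaf. JAZ repressors had a median of 0.50 in leaves and 2.75 in roots over 25 genes, with 16 called more negative in leaf and 2 more positive. Laccases were the other way, with a median of 3.72 in leaves and 0.58 in roots over 12 genes, 11 of them called more positive in leaf. Of 171 WRKY genes 107 rose in leaves and 108 in roots, and the difference was called more positive in leaf for 55 and more negative for 58.

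**Figure D5:**
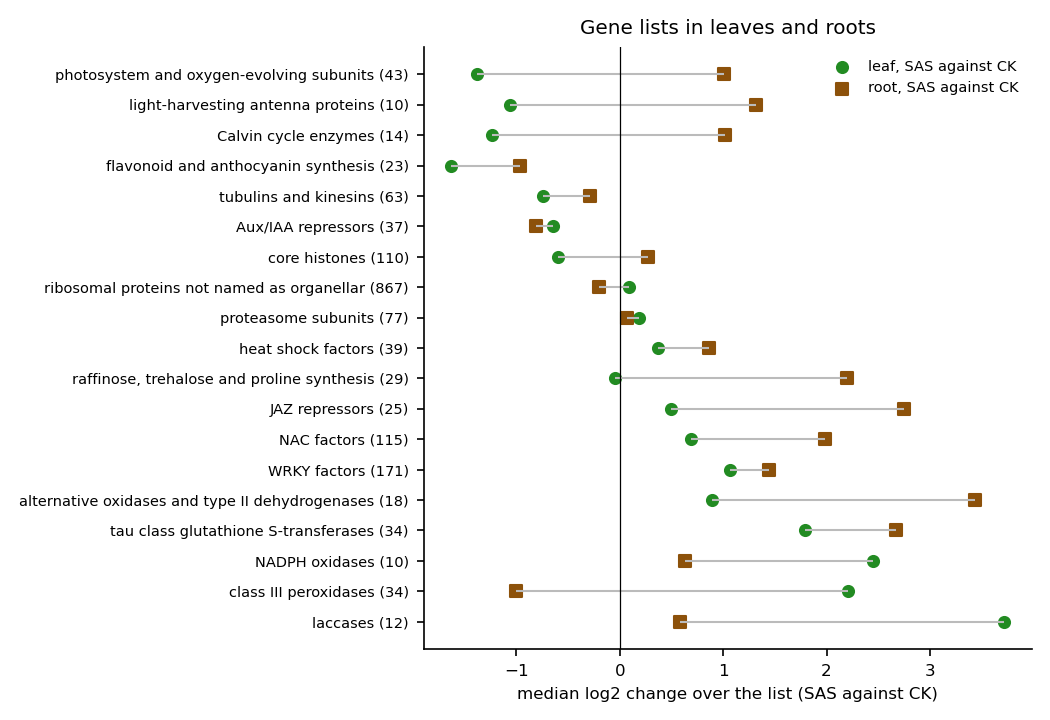
Median log2 change (x axis) of gene lists (y axis, tested members in parentheses) under SAS against CK, as circles for leaves and squares for roots joined by a line, over genes expressed in both organs. Photosystem genes lie at -1.38 in leaves and 1.01 in roots, raffinose, trehalose and proline synthesis at -0.05 and 2.20, and laccases at 3.72 and 0.58.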

How the data were processed

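Poly(A) RNA of 18 libraries was sequenced as paired ends, and 9 leaf libraries were used here, with the 9 root libraries only for the comparison of organs. Read counts and FPKM per gene are given side by side in the authors' deposited table; the submitters' processing notes name HISAT and StringTie without versions, and the genome build and counting settings are not given in the sources used here. All 302270 counts of 0 carry a deposited FPKM of 0.0001. Whether the counting used strand is not given, so overlapping and antisense genes cannot be told apart. Even numbers made up 56.1 to 59.2% of counts from 1 to 20 in the leaf libraries, so a count may not be an independent fragment, and counting error may be larger than the counts imply. Gene descriptions, carried by 58015 of 70478 genes, came from the same table, and none of its IDs matched the 99454 genes of the reference gene table, so no sequence is printed.

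Genes that reached an FPKM of 1 in 3 or more of the CK and SAS leaf libraries were tested with edgeR 4.0.16 in R 4.3.3 (quasi-likelihood, robust, TMM scaling, group means of the 9 leaf libraries, no covariates), with Benjamini-Hochberg adjustment over all 43595 genes and a call at an adjusted p under 0.05. CPM are TMM-scaled, shares are percents of a library's total count over all members of a list, tested or not, and each SE was derived from the log2 change and its F statistic. The interaction of organ and treatment was fitted on 18 libraries. Alternatives used DESeq2 1.42.0, limma 3.58.1 on log2(FPKM + 1) and log2(FPKM + 0.1), other scalings, filters and libraries. No unmapped column was present.

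Lists were matched on the descriptions, 71 by function and 7 by cell type or RNA quality. Markers named GLABRA2, GLABRA3, TTG1, SHORT-ROOT, HT1 and APL matched no description. The largest changes named had to be called, with a description and with separate CK and SAS libraries. They were the 10 largest in each direction with a mean of at least 10 CPM, and in each list the 2 largest with at least 5 CPM. The 2 members of highest FPKM in each list were taken whether called or not. For SAS against AS the 5 largest in each direction were called with separate AS and SAS libraries. The 4 largest opposed differences in each direction between organs were called in both organs, with no rule on overlap. The text uses a selection. Marker genes were named after their values were seen. The comparison, its members and the lists were chosen with earlier results of these data known.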

Additional observations from a re-analysis of the deposited data

Results flagged for a closer look

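The 8 genes below were singled out because SAS moved them in opposite directions in leaves and roots, with the difference itself tested in edgeR's quasi-likelihood interaction over 34801 genes; they are the 4 largest in each direction.

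Higher in leaf and lower in root, Gh_D13G0377, a cupredoxin, a small copper protein, had no count in CK leaves and 6.63, 5.71 and 4.31 CPM in SAS leaves, at least 118-fold higher on a floor of 3 counts per library, and went from 17.1, 8.36 and 9.61 CPM to 1.86, 0.479 and 0.518 CPM in roots. Its fitted log2 difference of 14.85 (adjusted p = 1.0e-06; 14.50 to 15.81 with each library left out) depends on the prior count and is no bound. The class III peroxidase Gh_D04G1101 went from 0.489 ± 0.194 CPM (SD, n = 3) to 10.0 ± 0.880 CPM in leaves and from 54.9, 7.72 and 4.77 CPM to 0.143, 0.254 and 0.144 CPM in roots, a log2 difference of 11.28 (adjusted p = 2.4e-05). Its root controls were far apart, and leaving out each library gave differences from 9.45 to 11.76. Gh_D12G0853, another peroxidase, had a difference of 10.93 (adjusted p = 2.5e-06; 10.27 to 15.40 with each library left out), with mean CPM from 0.634 to 3.30 in leaves and from 18.9 to 0.0470 in roots. Gh_D10G0757, a WRKY4, had a difference of 9.80 (adjusted p = 1.4e-05; 8.94 to 13.63), with mean CPM from 0.0291 to 5.55 in leaves and from 12.1 to 2.26 in roots.

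Lower in leaf and higher in root, Gh_D07G0549, a BTB and TAZ domain protein 1, fell from 25.9 ± 1.44 CPM to 1.97 ± 0.484 CPM in leaves and rose from 2.83 ± 0.625 CPM to 247 ± 43.0 CPM in roots, a log2 difference of -10.16 (adjusted p = 5.6e-09; -10.36 to -9.97 with each library left out). Its libraries were well separated in both organs. Gh_A07G1586, a leucine-rich receptor-like kinase, had a difference of -9.93 (adjusted p = 1.5e-08; -10.15 to -9.77), with mean CPM from 4.79 to 1.91 in leaves and from 0.127 to 50.3 in roots. Gh_D08G2583, a fatty acid or sphingolipid desaturase, had a difference of -10.80 (adjusted p = 1.0e-06; -12.12 to -10.20 with each library left out), with mean CPM from 37.5 to 6.13 in leaves and from 0.0541 to 16.2 in roots. Gh_A09G0893, a protein kinase, had a difference of -10.35 (adjusted p = 3.6e-07; -14.00 to -9.81 with each library left out), with mean CPM from 3.15 to 1.01 in leaves and from 0.0253 to 12.1 in roots. With library totals as the only scaling the 8 differences kept their signs.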

How the results depend on the processing

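The count of genes called in SAS against CK leaves, 23581, was 23238 with DESeq2, 23621 with RLE scaling, 23320 with library totals, 21851 with only the 6 libraries compared, 24207 without the FPKM filter and 18004 with a minimum FPKM of 5, and limma called 23704 with a pseudocount of 1 and 23599 with 0.1. Leaving out each library in turn gave 19967 to 24161 calls, 10354 to 12127 higher and 9613 to 12034 lower. SAS against AS gave 13289 to 19128 calls, 6698 to 9528 higher and 6472 to 9600 lower, and the difference between organs 15452 to 17069, 7492 to 8399 more positive in leaf and 7960 to 8670 more negative. Scaling by library totals moved that last split to 17202 and 4397. In SAS against AS, where 9138 genes were higher and 8654 lower, the lower calls were the more numerous with library totals (8286 and 9134), without SAS library 2 (6698 and 7065) and without SAS library 3 (9528 and 9600). No called value of a named gene changed sign; across gene and alternative pairs 6350 kept their side of the threshold, 54 lost it and 7 gained it. List medians moved by less than 0.1 in 967 list and alternative pairs and by at least 0.1 in 201, and 27 pairs over 12 lists changed sign. Among these were the catalase median, -0.79, which was 0.23 with a minimum FPKM of 5, and that of organelle-type transcripts, -0.31, which was 0.01 without CK library 1. The causes were not tested.

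Same-numbered CK and SAS libraries did not deviate together, with correlations of -0.01, -0.07 and -0.143, against -0.062 to 0.135 for different-numbered ones. The labels state no pairing, and correlations over 3 libraries a group cannot settle whether the numbers pair the libraries. A fit with the number as a replicate block called 22156 genes in SAS against CK, 15695 in SAS against AS and 15912 between organs. With 3 libraries a group of unstated origin, an unstated count procedure and codes whose solutions are not resolved, the values describe these libraries. Genes near the floor of 3 counts have fold changes that move with single libraries.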

Other observations

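Surface and defence genes not described above rose more often than they fell in SAS leaves. Cuticle lipid enzymes rose in 30 of 70 cases and fell in 12 (median log2 change 0.35, against 27.6% higher and 26.5% lower over all genes). Gh_A08G1816, a glycerol-3-phosphate acyltransferase 3, was at 0.873, 1.61 and 1.32 CPM in CK and 20.3, 27.0 and 8.33 CPM in SAS (log2 3.86 ± 0.45, adjusted p = 1.2e-04). Gh_A08G2377, a fatty acid hydroxylase of the CYP86A8 type, went the other way, from 35.2, 45.2 and 50.2 CPM to 5.51, 5.14 and 6.18 CPM (log2 -2.95 ± 0.18, adjusted p = 1.1e-05). Osmotin, thaumatin, chitinase and glucanase genes, many of them pathogenesis-related, rose in 39 of 78 cases and fell in 12 (median 0.81), and AS against CK had 31 higher and 3 lower (median 0.80). The chitinase A gene Gh_D12G2669 was at 25.0, 51.2 and 82.2 CPM in CK, 403, 307 and 310.4 CPM in AS and 427, 582 and 531 CPM in SAS. Both treated groups were above CK, and SAS against AS did not pass the test (log2 0.59, adjusted p = 0.192).

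Nutrient lists were mixed. Of 43 sulfate transport and assimilation genes 18 rose and 13 fell, and their share of counts was 0.120% in CK, 0.292% in AS and 0.188% in SAS on average. Gh_D11G1301, a sulfate transporter of group 3, was at 3.44, 3.54 and 3.96 CPM in CK, 16.9, 6.94 and 6.08 CPM in AS and 101, 44.5 and 28.2 CPM in SAS (log2 3.99 ± 0.53, adjusted p = 2.4e-04), and without SAS library 1 the log2 change was 3.32. Of 33 iron genes 14 fell and 8 rose, and ferric reductases, which reduce iron before uptake, were opposed: Gh_A05G2158 (oxidase 8) went from 10.9, 10.9 and 13.7 CPM to 28.3, 19.7 and 26.7 CPM (log2 1.07 ± 0.16, adjusted p = 4.0e-04), and Gh_D10G2127 (oxidase 7) from 27.9, 29.9 and 31.7 CPM to 10.7, 5.32 and 6.98 CPM (log2 -1.96 ± 0.21, adjusted p = 9.2e-05). Of 73 phosphate starvation genes 17 rose and 15 fell, both shares below those over all genes. Gh_A07G0413, a mitochondrial-type phosphate transporter of group 3, went from 2.16, 3.46 and 3.67 CPM to 77.1, 116 and 46.6 CPM (log2 4.68 ± 0.34, adjusted p = 1.9e-05). Cytokinin genes fell in 21 of 59 cases and rose in 16, and the receptor kinase Gh_D07G1665 (histidine kinase 2) went from 126, 121 and 123 CPM to 54.7, 35.8 and 54.7 CPM (log2 -1.35 ± 0.15, adjusted p = 1.1e-04). Of 21 clock genes 5 rose and 3 fell, both shares again below those over all genes.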
